A study of Mus musculus with 12 samples.

Results

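Heat shock proteins (HSPs) are molecular chaperones, and the DnaJ or J-domain proteins are the cochaperones that bring them their substrates. The genes described here are the 72 of the 55487 rows of the deposited table whose symbol begins with Hsp, or with Dnaja, Dnajb or Dnajc and a number. Hspg2, a proteoglycan gene that only shares the letters, was left out. Of the 72 genes, 65 reached an FPKM (fragments counted per kilobase of a gene's transcripts, relative to the library's total) of 1 in at least 3 libraries and were tested. The other 7 (Dnajb3, Dnajb7, Dnajb8, Dnajb13, Dnajc6, Dnajc22 and Hspb9) never exceeded 1.09 FPKM.

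The data come from 12 wild-type mouse hearts, 3 in each of 4 groups. In the I/R+B12 group the left anterior descending coronary artery was closed for 45 min and reopened for 24 h (ischemia/reperfusion, I/R), after 7 days of vitamin B12 at 50 mg/L in the drinking water. The I/R group had the same surgery on normal water. The Sham+B12 group had the vitamin and the same operation with the artery not closed, and the Sham group had that operation on normal water. Mice were assigned at random, and daily water intake was 4 mL. The labels name the heart without a region, so the share of injured muscle in each specimen is not known. The strain, sex and age are not given in the sources used here.

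Chaperones of the HSP70 class bind unfolded stretches of other proteins and let go of them in a cycle driven by ATP. J-domain proteins start that cycle by stimulating the ATPase, and HSP110 and other exchange factors end it by releasing the ADP. Under protein-folding stress the cytosolic set is switched on by heat shock factor 1 (HSF1), while the endoplasmic reticulum (ER) has its own chaperones under the unfolded protein response. Small HSPs hold unfolded proteins without ATP and are abundant in heart muscle.

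The deposited values are FPKM without counts. From the steps between low values the depth was estimated at 24 to 28.5 M fragments per library, and a gene of 1500 nt at 1 FPKM then rests on 29.8 to 35.1 fragments. Summed cardiomyocyte markers reached 51660 to 80460 FPKM in every library, so the labelled organ had its defining markers throughout. The libraries labelled I/R 3 and Sham 3 stood apart from their groups: summed neutrophil markers were 18.17 FPKM in I/R 3 against 1539 and 1662 in the other I/R libraries, and 278.9 in Sham 3 against 11.83 and 14.79 in the other Sham libraries. Over the tested genes, I/R 3 correlated best with Sham 2 (r 0.9816, against 0.9525 and 0.9574 with the other I/R libraries), and Sham 3 correlated best with I/R+B12 1 (r 0.9688), by a small margin over Sham+B12 1 (0.9673). Sham 3 also had 3156.53 FPKM of Nppa, the atrial natriuretic peptide gene, where the other libraries had 178.1 to 706.68. Whether these 2 hearts carry each other's labels was not tested. Labels were kept as given, and calls that change when both are left out are given below.

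Differences below are log2 differences of FPKM + 1 from limma, fitted over all 12 libraries and 13001 genes. A gene was called when its Benjamini-Hochberg adjusted p, over all 13001 genes of a comparison, was under 0.05. A change is described as a rise or a fall only where it was called, and ± gives the SD of 3 libraries. In whole-heart RNA, fewer cells of a type and less RNA per cell cannot be told apart.

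The genes spanned a wide range of levels. By mean FPKM over the 12 libraries, 21 of the 65 tested genes lay below 10, 33 between 10 and 100 and 11 at 100 or more. The small HSP genes Hspb7 and Hspb1 had the highest means (854.9 and 768.2 FPKM), followed by Hspa8, the constitutive cytosolic HSP70 (673.5). The lowest were Hspbap1, which encodes a protein that binds HSPB1 (1.43), the ER membrane cochaperone gene Dnajb14 (1.81) and Dnajc27 (2.84).

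**Figure D1:**
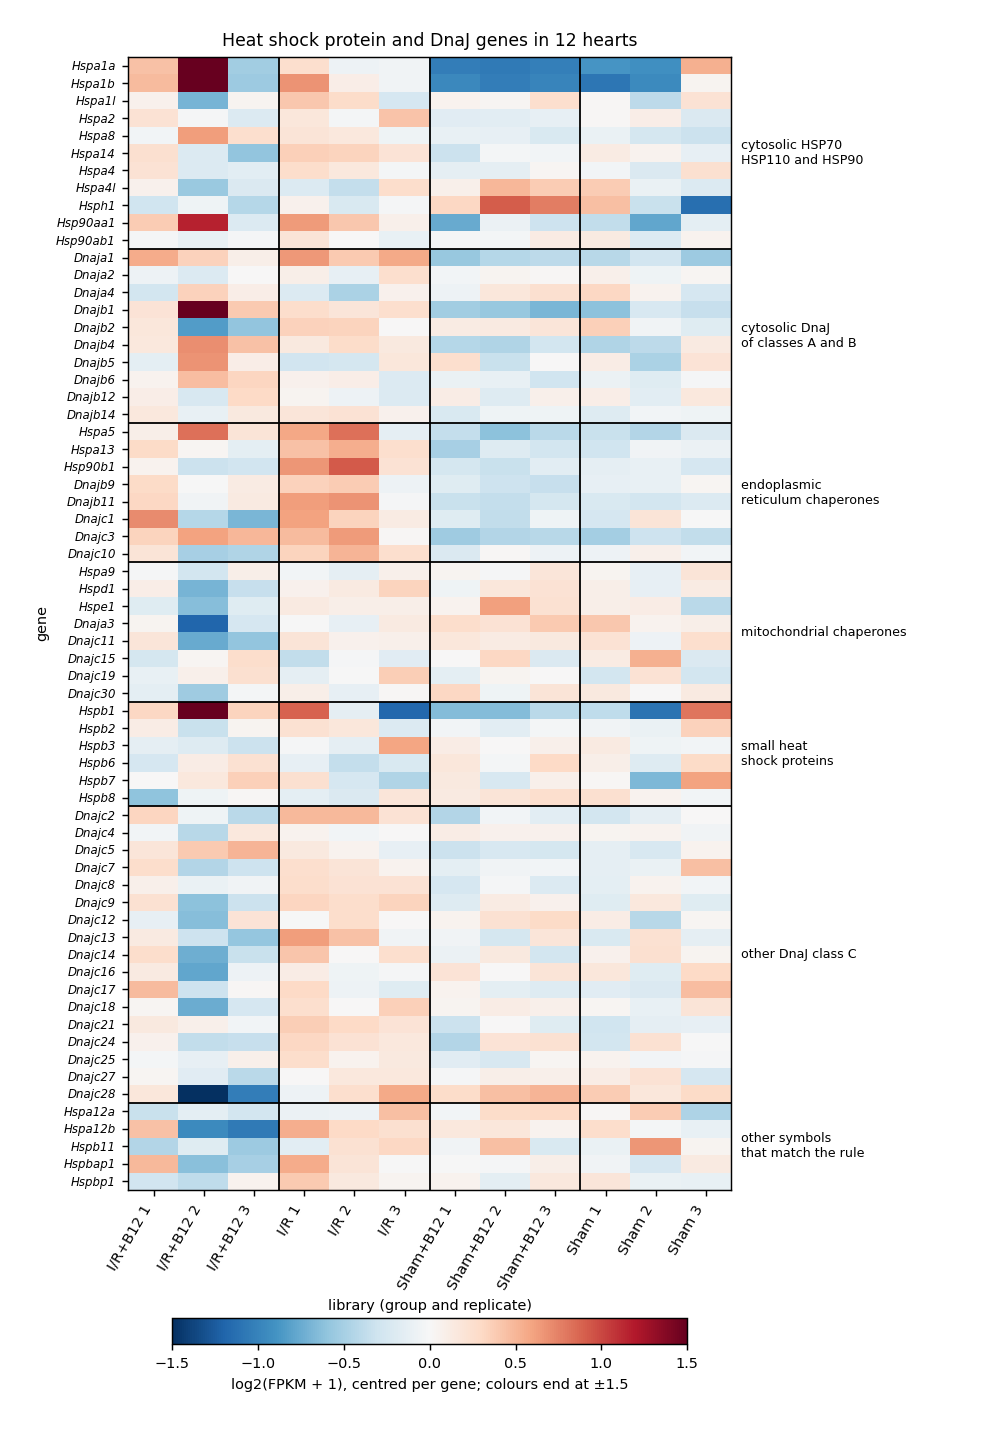
log2(FPKM + 1) of the 65 tested genes (rows, by class) in the 12 libraries (columns, by group and replicate), centred on each gene's mean, with red above and blue below that mean and colours that end at ±1.5. Dnaja1, Dnajb1, Dnajc3 and Hspa5 are red across most I/R columns, and Hspa1a, Hspa1b and Hspb1 are darkest in the second I/R+B12 library.

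The heat map of all 65 genes shows both genes that are high in the I/R hearts and genes with no such pattern. Averaged over both kinds of water, 10 of the 65 genes were higher after I/R and 0 were lower. That is 15.4% higher against 8.36% of all tested genes, beside 1.71% of all tested genes that were lower. The 10 were Dnaja1, Dnajc3, Dnajb4, Dnajb1, Hspa5, Dnajb11, Hspa13, Dnajc5, Dnajc21 and Hsp90aa1. Of these, 7 encode J-domain proteins, Hspa5 and Hspa13 are HSP70 relatives of the ER, and Hsp90aa1 is a cytosolic HSP90. The median over the 65 genes was a difference of 0.02, beside 0.05 over all tested genes. With median-ratio scaling 6 were higher and 1 (Dnaja3) lower, or 10.8% beside 8.78% of all tested genes in either direction. Dnajb4, Dnajc5, Dnajc21 and Hsp90aa1 were then no longer called. Summed neutrophil markers (9 of 9 detected) were at 280.0 to 3224 FPKM in I/R+B12 and 18.17 to 1662 FPKM in I/R, against 7.37 to 42.96 FPKM in Sham+B12 and 11.83 to 278.9 FPKM in Sham, and their part in the result was not tested. The count rested on single libraries, as did the share of all tested genes that were called. Leaving out I/R 1, Sham 1, Sham+B12 1 or Sham+B12 3 gave 0 calls, beside 0% of all tested genes. Leaving out I/R 2 gave 1 (1.54%, beside 0.0154%) and Sham 2 gave 2 (3.08%, beside 2.18%). Leaving out the second I/R+B12 or the second Sham+B12 library gave 6 (9.23%, beside 4.71% and 4.32%). Leaving out the first I/R+B12 library gave 16 (24.6%, beside 20.8% of all tested genes). Of these 12 were higher and 4 lower (Dnaja3, Dnajc11, Dnajc28 and Hspa12b). With neither Sham 3 nor I/R 3 in the fit the count was 13 (20%, beside 17.7%), the 3 added being Dnajb9, Hsp90b1 and Hspb1.

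Dnaja1 encodes a cytosolic class A J-domain protein that works with HSPA8. It lies on chromosome 4 (40722150 to 40737149, plus strand, mm10; ENSMUSG00000028410). Its level was 35.27, 30.40 and 25.19 FPKM in the I/R+B12 hearts and 37.73, 31.26 and 35.64 FPKM in the I/R hearts, against 15.66, 17.35 and 17.81 FPKM in Sham+B12 and 17.50, 19.20 and 15.94 FPKM in Sham. Every I/R library was above every sham library, with no overlap. The averaged difference was 0.87 (SE 0.10, limma adjusted p 0.0155), and by p-value Dnaja1 ranked 2 of 13001 genes. It was the gene with the smallest p in I/R against Sham (0.95, SE 0.14), although its adjusted p was 0.342 there. In I/R+B12 against Sham+B12 it rose by 0.79 (adjusted p 0.0208). Over 22 alternative settings the averaged difference was 0.72 to 0.93, with an adjusted p of at most 0.0608, and it was above 0.05 in 4 of them, each without a single library. Dnaja1 followed the labels in the pair of libraries that stood apart: it was high in I/R 3 and low in Sham 3, where summed neutrophil markers ran the other way.

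Exons of Dnaja1 overlap those of Smu1 on the other strand over 608 nt, and the library kit does not mark strand. Reads from that stretch cannot be assigned to either gene. Smu1, a splicing factor gene, was at 16.67 to 23.28 FPKM in all 12 libraries. Its level was 20.87, 23.28 and 23.26 FPKM in I/R+B12 and 20.56, 17.83 and 18.50 FPKM in I/R, against 18.64, 17.61 and 16.67 FPKM in Sham+B12 and 18.93, 18.31 and 19.60 FPKM in Sham. Values of Smu1 spanned a smaller range than those of Dnaja1, but they can hold the same shared reads. Exons of Dnaja1 also overlap those of the noncoding gene Gm6297 on the other strand over 249 nt. The part of these overlaps in the level of Dnaja1 was not tested.

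Dnajb1 and Dnajb4 are class B cochaperones of cytosolic HSP70, and Dnajb1 is a known target of HSF1. Dnajb1 had 10.83, 31.96 and 12.42 FPKM in I/R+B12 and 11.30, 10.55 and 11.14 FPKM in I/R, against 6.11, 5.87 and 5.37 FPKM in Sham+B12 and 5.68, 7.62 and 7.06 FPKM in Sham. The groups did not overlap, and the second I/R+B12 library was far above the rest. The averaged rise was 0.99 (SE 0.21, adjusted p 0.0272), and 1.36 in I/R+B12 against Sham+B12 (adjusted p 0.0277). Dnajb4 had 31.59, 46.13 and 38.70 FPKM in I/R+B12 and 31.25, 34.21 and 31.37 FPKM in I/R, against 20.69, 20.27 and 23.07 FPKM in Sham+B12 and 20.36, 21.18 and 31.02 FPKM in Sham. Sham 3, the Sham library with high neutrophil markers and Nppa, came just under the lowest I/R library. Dnajb4 rose by 0.62 on average (SE 0.12, adjusted p 0.0241).

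**Figure D2:**
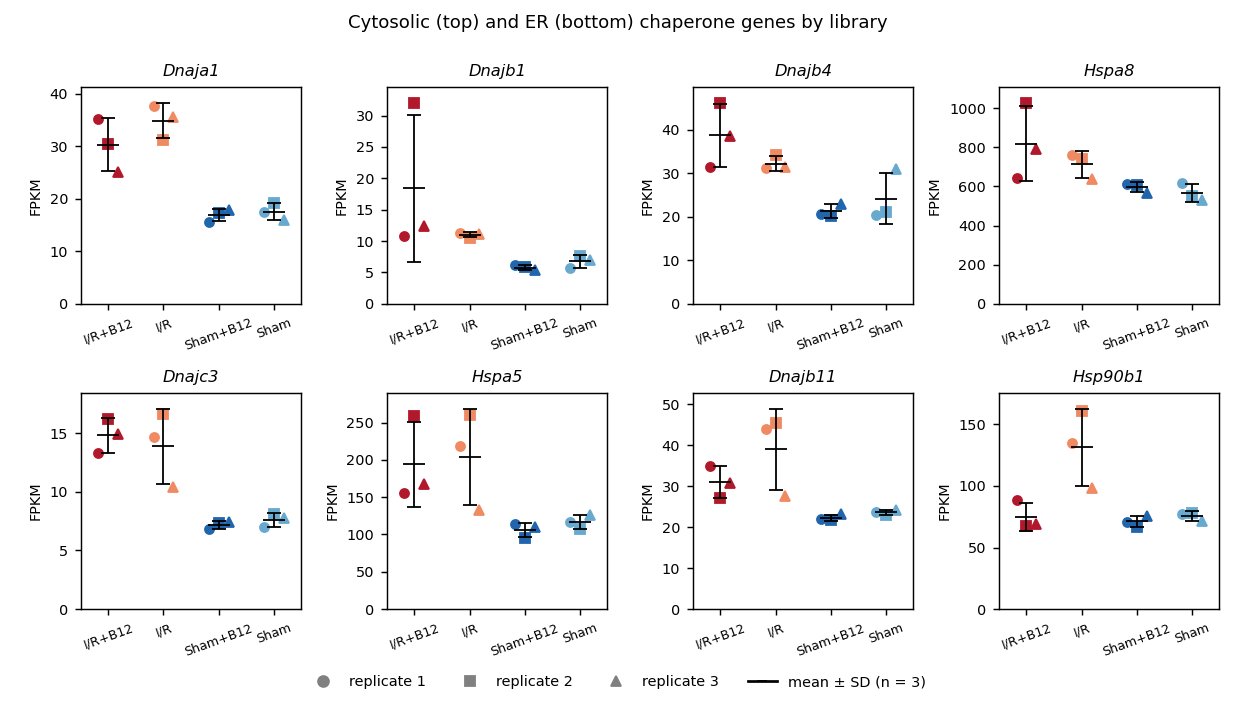
FPKM of 4 cytosolic genes (top) and 4 ER genes (bottom) in each library, by group, with the mean and SD of 3 libraries. In Dnaja1, Dnajb1, Dnajb4, Hspa8, Dnajc3, Hspa5 and Dnajb11 all 6 I/R points lie above all 6 sham points, while Hsp90b1 is high in the I/R group alone.

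The partners of these cochaperones differed in size and spread. Hspa8 had 642.07, 1024.81 and 789.44 FPKM in I/R+B12 and 759.59, 740.86 and 635.83 FPKM in I/R, against 614.22, 608.92 and 566.65 FPKM in Sham+B12 and 617.28, 551.08 and 530.91 FPKM in Sham. Its 6 I/R libraries were all above its 6 sham libraries, yet its difference of 0.38 just missed the threshold (adjusted p 0.0512). Hspa8 was among 7 of the 65 genes without overlap between the 6 I/R and the 6 sham libraries, which is 10.8% against 3.62% of all tested genes. The other 6 were Dnaja1, Dnajc3, Dnajb4, Dnajb1, Hspa5 and Dnajb11. None of the 65 was wholly lower, beside 0.646% of all tested genes. Hsp90aa1, the inducible cytosolic HSP90, had 36.81, 63.80 and 24.32 FPKM in I/R+B12 and 44.42, 37.45 and 29.81 FPKM in I/R, against 16.25, 26.32 and 22.55 FPKM in Sham+B12 and 21.54, 15.96 and 25.31 FPKM in Sham. It rose by 0.82 on average (SE 0.22, adjusted p 0.0426), a call lost in 12 of 22 settings. Hsp90ab1, the constitutive HSP90, stayed at 470.0 to 620.3 FPKM in all libraries, with an averaged difference of -0.02 (adjusted p 0.914).

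Chaperones of the ER made up 4 of the 10 called genes, from 8 tested (Hspa5, Hsp90b1, Hspa13, Dnajb9, Dnajb11, Dnajc1, Dnajc3 and Dnajc10). That is 50% higher, beside 8.36% of all tested genes. Their averaged differences were positive in 8 of 8, with a median of 0.44, also with median-ratio (0.38) and quantile (0.38) normalization. Over all tested genes 7371 of 13001 averaged differences were positive. These classes were drawn up with values known, so the counts are a description. Dnajb12 and Dnajb14, ER-membrane cochaperones that face the cytosol, were counted with the cytosolic classes, and Dnajb12 had a negative difference (-0.03). Dnajc3 encodes P58IPK, a J-domain protein of the ER lumen that inhibits the kinase PERK. It had 13.30, 16.23 and 14.94 FPKM in I/R+B12 and 14.67, 16.67 and 10.40 FPKM in I/R, against 6.81, 7.34 and 7.47 FPKM in Sham+B12 and 6.97, 8.13 and 7.75 FPKM in Sham. All I/R values were above all sham values, and I/R 3 was the lowest of them. Dnajc3 rose by 0.86 on average (SE 0.11, adjusted p 0.0155) and by 0.94 under B12 (adjusted p 0.0191), the smallest adjusted p of the family there.

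Hspa5 encodes BiP, the HSP70 of the ER and its main folding chaperone. Its level was 155.51, 259.28 and 167.51 FPKM in I/R+B12 and 218.66, 260.16 and 133.26 FPKM in I/R, against 113.48, 94.99 and 109.98 FPKM in Sham+B12 and 116.05, 107.26 and 126.04 FPKM in Sham. I/R 3 exceeded the highest sham heart only slightly. The averaged rise was 0.79 (SE 0.17, adjusted p 0.0272). Dnajb11, a lumenal J-domain partner of BiP, rose by 0.56 (adjusted p 0.0284): it averaged 31.0 ± 3.94 FPKM in I/R+B12 and 39.1 ± 9.92 FPKM in I/R, against 22.3 ± 0.734 FPKM in Sham+B12 and 23.7 ± 0.663 FPKM in Sham (n = 3 each). Hspa13 rose by 0.47 (adjusted p 0.0329), with 3.63 ± 0.708 FPKM in I/R+B12 and 4.88 ± 0.594 FPKM in I/R, against 2.54 ± 0.383 FPKM in Sham+B12 and 2.98 ± 0.361 FPKM in Sham. Dnajb9, which holds the sensor IRE1 inactive through BiP, had a difference of 0.35 (adjusted p 0.0516), which was 0.45 and called when Sham 3 and I/R 3 were left out (adjusted p 0.0153).

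Hsp90b1 encodes GRP94, the HSP90 of the ER, and its pattern differed from that of BiP. It had 88.26, 67.73 and 69.13 FPKM in I/R+B12 and 134.65, 161.26 and 98.77 FPKM in I/R, against 70.60, 67.02 and 75.93 FPKM in Sham+B12 and 77.09, 78.44 and 71.21 FPKM in Sham. The I/R hearts were above the other 9 hearts, among which I/R+B12 overlapped the sham groups. The I/R against Sham difference was 0.76 (adjusted p 0.378), that of I/R+B12 against Sham+B12 was 0.07 (adjusted p 0.814), and that of I/R+B12 against I/R was -0.78 (adjusted p 0.0779). The interaction, which takes the I/R difference on normal water from the I/R difference on B12, was -0.70 (adjusted p 0.401), so a difference between the waters was not called. The averaged difference of Hsp90b1 was 0.42 (adjusted p 0.0510), and 0.49 with a call when Sham 3 and I/R 3 were left out (adjusted p 0.0166). Macrophage and monocyte markers, summed over 10 of 10 listed genes, were at 220.9 to 571.2 FPKM in I/R+B12 and 707.0 to 1056 FPKM in I/R, against 407.0 to 715.6 FPKM in Sham+B12 and 379.0 to 807.4 FPKM in Sham. Fibroblast markers (8 of 8) were at 402.3 to 473.7 FPKM in I/R+B12 and 818.1 to 892.7 FPKM in I/R, against 476.1 to 624.8 FPKM in Sham+B12 and 586.8 to 893.9 FPKM in Sham, so Sham reached the level of I/R. Their part in the level of Hsp90b1 was not tested. Exons of Hsp90b1 overlap those of the pseudogene 1810014B01Rik on the other strand over 415 nt, where reads cannot be assigned. 1810014B01Rik had 4.92, 1.15 and 2.07 FPKM in I/R+B12 and 11.64, 14.41 and 6.18 FPKM in I/R. It had 14.27, 21.23 and 4.61 FPKM in Sham+B12 and 4.17, 17.98 and 10.14 FPKM in Sham. The part of this overlap was not tested.

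The start regions of 3 of these ER genes show the sequence that the unfolded protein response reads in textbook promoters. The ER stress response element, searched as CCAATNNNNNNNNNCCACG on both strands from 250 bases before to 50 bases after the RefSeq start (GRCm38.p6), was found in 39 of 32851 windows, or 0.119%. Among the 59 family genes with a window it was found in 3: Dnajc3, Hspa5 and Hsp90b1, in the last of these at 2 places. A gene can have several windows, so a share of genes and the share of windows are not alike. The stretches that end at the base before the start are printed from 5′ to 3′ on the gene's own strand, with the matches in capitals, because these 3 genes carry the same element and differ in their levels. The element begins at position -65 in Hspa5 (chr2:34771930-34772089, plus strand), at -105 in Dnajc3 (chr14:118937772-118937931, plus strand) and at -212 and, on the reverse strand, -107 in Hsp90b1 (chr10:86705445-86705674, minus strand). Dnajb11, Dnajb9, Dnajc1 and Dnajc10 had a window with no match, and Hspa13 had no window.
Hspa5: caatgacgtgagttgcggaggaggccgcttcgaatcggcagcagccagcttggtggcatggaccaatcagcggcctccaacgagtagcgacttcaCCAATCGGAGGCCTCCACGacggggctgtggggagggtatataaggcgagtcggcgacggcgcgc
Dnajc3: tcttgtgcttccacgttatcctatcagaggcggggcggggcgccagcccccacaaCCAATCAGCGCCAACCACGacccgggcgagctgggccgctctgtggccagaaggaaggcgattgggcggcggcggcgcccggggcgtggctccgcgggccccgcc
Hsp90b1: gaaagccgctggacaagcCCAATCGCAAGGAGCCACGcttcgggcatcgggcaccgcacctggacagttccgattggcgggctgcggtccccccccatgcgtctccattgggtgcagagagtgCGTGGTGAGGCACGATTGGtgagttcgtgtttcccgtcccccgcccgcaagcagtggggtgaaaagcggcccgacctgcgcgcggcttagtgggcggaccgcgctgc
A match is a description of the letters, not a sign of binding in these hearts.

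The stress-inducible HSP70 genes were led by a single heart. Hspa1a and Hspa1b encode nearly the same protein, so reads can be split between them by chance, and their sum is the safer value. Summed, they had 12.57, 214.18 and 5.31 FPKM in I/R+B12 and 12.86, 8.77 and 8.25 FPKM in I/R, against 3.29, 3.13 and 3.28 FPKM in Sham+B12 and 3.34, 3.52 and 11.01 FPKM in Sham. The second I/R+B12 heart was far above all others, and Sham 3 lay among the I/R hearts. Neither gene was called: Hspa1a had an averaged difference of 1.47 (adjusted p 0.159) and Hspa1b of 1.67 (adjusted p 0.112). In I/R+B12 against Sham+B12 the differences were 2.47 (SE 0.94) and 2.42 (SE 0.93), with an adjusted p of 0.101 for each, and the 3 I/R+B12 libraries were above the 3 Sham+B12 libraries. When the second I/R+B12 heart was left out, the differences were 1.00 for Hspa1a (adjusted p 0.193) and 0.96 for Hspa1b (adjusted p 0.174).

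Among the small HSP genes Hspb1 was high in the same hearts. Hspb1, whose protein protects the cytoskeleton under stress, had 751.33, 2745.19 and 760.71 FPKM in I/R+B12 and 1116, 552.71 and 267.87 FPKM in I/R, against 386.47, 386.00 and 455.99 FPKM in Sham+B12 and 462.81, 279.92 and 1053.93 FPKM in Sham. I/R 3 had the lowest value of all 12 and Sham 3 the third-highest, so the labelled I/R and Sham groups overlapped. Its difference was 1.51 under B12 (adjusted p 0.120) and 0.09 on normal water (adjusted p 0.965). Both moved when hearts were left out. The Hspb1 difference under B12 was 0.89 without the second I/R+B12 heart (adjusted p 0.391). That on normal water was 1.12 with Sham 3 and I/R 3 left out together (adjusted p 0.361). The averaged difference of Hspb1 was 0.80 (adjusted p 0.233), and 1.32 with a call when Sham 3 and I/R 3 were left out (adjusted p 0.0432). The muscle small HSPs showed smaller averaged differences, of -0.20 for Hspb6 (adjusted p 0.241), -0.28 for Hspb8 (adjusted p 0.142) and 0.02 for Hspb7 (adjusted p 0.956), the last of which turns negative with median-ratio and quantile normalization. With all 12 libraries, 0 of the 6 small HSP genes tested were called in any of the 6 comparisons. In the averaged comparison 8.36% of all tested genes were higher and 1.71% lower, and in I/R+B12 against Sham+B12 6.78% and 3.62%. In the other comparisons 0% of all tested genes were called.

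**Figure D3:**
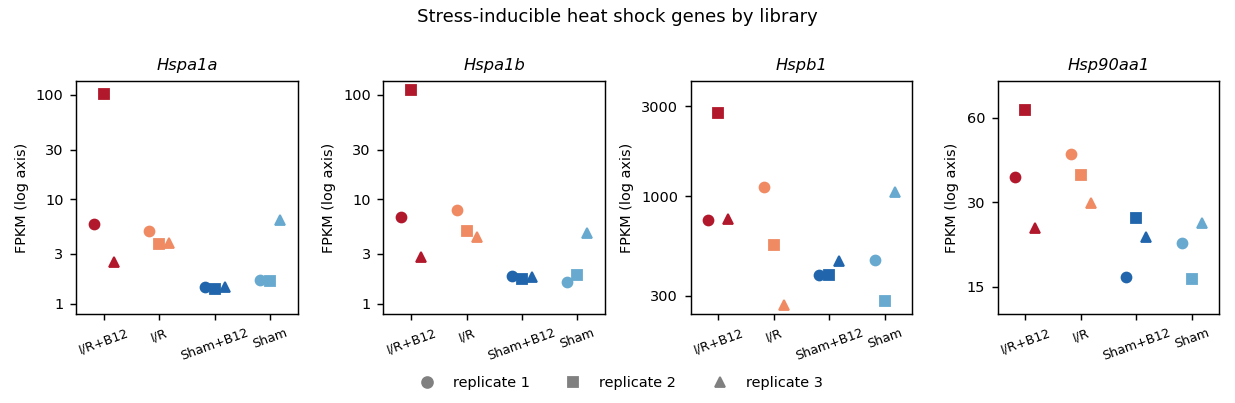
FPKM on a log axis of Hspa1a, Hspa1b, Hspb1 and Hsp90aa1 in each library, by group, with no mean drawn. The second I/R+B12 heart is highest in all 4 panels, and the third Sham heart is the highest Sham heart in all 4.

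The second I/R+B12 heart held the lowest value of the 12 libraries in 24 of the 65 genes (36.9%) and the highest in 10 (15.4%), beside 35.1% and 11.3% of all tested genes. The first I/R heart held the highest value in 15 of the 65 genes (23.1%), beside 21.8% of all tested genes. In the second I/R+B12 heart summed neutrophil markers were the highest of all libraries (3224 FPKM), beside 1249 and 280.0 FPKM in the other I/R+B12 hearts, and their part in these values was not tested.

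Upstream of Hspa1a and Hspa1b the letters are nearly the same. Over the 160 bases before each start, 159 were identical (99.4%). Both hold 1 pair of inverted heat shock units, GAANNTTC, from position -104, as does Dnajb1's class A relative Dnaja1 from -124. That short form occurs in 7.86% of all windows and in 13 of the 59 family genes (22.0%). Of those 13, Dnaja1 alone was called higher in the averaged comparison, beside 8.36% of all tested genes. Dnajb1 and Dnajb4, which were also called, had no match in their windows. The 3-unit form GAANNTTCNNGAA, on either strand, occurs in 0.603% of windows and in 4 family genes (Dnajb6, Hspd1, Hspe1 and Hsph1). In the averaged comparison 0 of these 4 were called higher, beside 8.36% of all tested genes. With so few genes, a count of 0 is not a result at that share. The short form lies inside the long one. A gene can have several windows (3 for Dnaja1, of which the printed window alone matched) and counts when any of them matches. Shares of windows and shares of genes are therefore not alike. The stretches are shown with the 8-base match in capitals to set the pair that was far above the rest in 1 heart beside the gene that was high in every I/R heart (chr17:34972157-34972316, minus strand; chr17:34959239-34959398, minus strand; chr4:40722308-40722467, plus strand; RefSeq, GRCm38.p6).
Hspa1a: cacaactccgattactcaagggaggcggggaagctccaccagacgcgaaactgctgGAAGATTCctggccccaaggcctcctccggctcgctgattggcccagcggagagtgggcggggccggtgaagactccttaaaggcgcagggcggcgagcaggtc
Hspa1b: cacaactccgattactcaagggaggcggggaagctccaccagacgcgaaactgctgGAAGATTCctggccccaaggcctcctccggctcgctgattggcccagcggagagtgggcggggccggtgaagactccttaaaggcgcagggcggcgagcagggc
Dnaja1: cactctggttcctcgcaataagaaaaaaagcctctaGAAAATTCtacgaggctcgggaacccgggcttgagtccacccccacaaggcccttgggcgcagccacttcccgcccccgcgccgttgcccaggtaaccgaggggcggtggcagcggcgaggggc
These are the letters of the reference genome, not of these mice.

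In mice given B12, I/R against sham gave 5 family genes higher and 0 lower, which is 7.7% against 6.78% of all tested genes, a share near the background. Of all tested genes 3.62% were lower. They were Dnajc3, Dnaja1, Dnajc5, Dnajb4 and Dnajb1. The averaged comparison holds the same libraries, so these calls are not separate support for it. With median-ratio scaling 6 were higher and 4 lower (15.4%, beside 14.8% of all tested genes). With quantile normalization 5 were higher and 4 lower (13.8%, beside 13.8%). The 4 lower in both were Dnaja3, Dnajc11, Dnajc28 and Hspe1. Leaving out any single Sham+B12 library gave 0 calls, beside 0% to 0.246% of all tested genes. Leaving out the second I/R+B12 library gave 1 (1.54%, beside 0.377%). Leaving out the first I/R+B12 library gave 20 (8 higher and 12 lower), or 30.8% beside 29.5%. Leaving out Sham 3 and I/R 3, which enter through the shared spread, gave 9 (13.8% beside 12.8%), and the 4 added were Hspa5 and Dnajb11, higher, and Hspe1 and Hsph1, lower. The median of the 65 genes was -0.06, beside -0.02 over all tested genes. Libraries did not overlap in 14 genes that were higher (21.5% against 19.1% of all tested genes) and 9 that were lower (13.8% against 13.2%).

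Dnajc5 encodes cysteine string protein, a J-domain protein of secretory vesicles. It had 17.46, 20.26 and 22.04 FPKM in I/R+B12 and 16.92, 15.82 and 13.87 FPKM in I/R, against 11.99, 12.70 and 12.49 FPKM in Sham+B12 and 13.73, 12.77 and 15.88 FPKM in Sham. The I/R+B12 hearts were above all others, and I/R overlapped Sham. It rose by 0.64 under B12 (SE 0.13, adjusted p 0.0250). The difference of I/R against Sham was 0.13 (adjusted p 0.696), and the interaction of 0.51 was not called (adjusted p 0.401). Dnajc21, a J-domain protein of ribosome assembly, rose by 0.35 in the averaged comparison (adjusted p 0.0353). It had 12.4 ± 0.888 FPKM in I/R+B12 and 14.6 ± 0.841 FPKM in I/R, against 10.4 ± 1.30 FPKM in Sham+B12 and 10.3 ± 0.730 FPKM in Sham. The averaged call of Dnajc5 was lost in 11 of 22 settings and that of Dnajc21 in 10. For both genes these included median-ratio and quantile scaling.

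**Figure D4:**
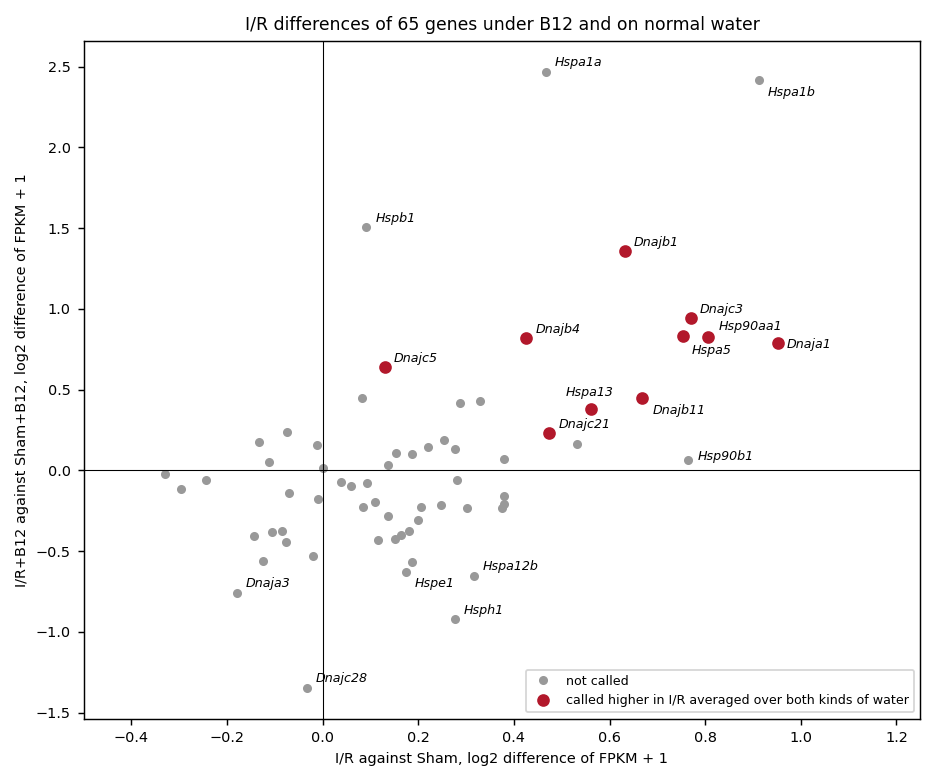
Each point is 1 of the 65 genes: the log2 difference of FPKM + 1 of I/R against Sham (x axis) and of I/R+B12 against Sham+B12 (y axis). The 10 genes called higher in the comparison averaged over both kinds of water are red and all lie right of and above 0, while Hspa1a and Hspa1b have y values of 2.47 and 2.42 and were not called, and Hsp90b1 lies at 0.76 on the x axis and 0.07 on the y axis.

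On normal water, I/R against Sham gave 0 called genes in the family and 0% of all 13001 tested genes. At an unadjusted p under 0.05 limma gave 11 family genes higher and 0 lower, which is 16.9% higher against 10.6% of all tested genes, while 1.04% of all tested genes were lower. Of the 65 differences 48 were positive, beside 8982 of all 13001 tested genes, a share near the background. The median was 0.17 beside 0.13 over all tested genes. Median-ratio scaling took the median over all genes to 0.00 and that of the family to 0.03. The smallest p-values belonged to Dnaja1, Dnajc3 (0.77), Hsp90b1 (0.76), Dnajb11 (0.67) and Dnajc21 (0.47), the last 4 with an adjusted p of 0.378. The 3 I/R libraries were all above the 3 Sham libraries in 18 genes (27.7% against 18.8%) and all below them in 0 (against 3.6%). When Sham 3 and I/R 3 were left out, Dnajb11 and Dnajc3 were called higher.

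With all 12 libraries, 0 of the 8 mitochondrial chaperone genes tested were called in any of the 6 comparisons. Of all tested genes 8.36% were higher and 1.71% lower in the averaged comparison, and 6.78% and 3.62% in I/R+B12 against Sham+B12. In the other comparisons 0% of all tested genes were called. Of the 8 genes, 7 had a negative averaged difference, beside 5630 of 13001 tested genes. The median was -0.20 over the 8, beside 0.05 over all tested genes. Under B12, 7 of 8 were negative (median -0.40, and -0.23 without the second I/R+B12 heart), and on normal water 5 of 8 (median -0.05). Scaling by median ratios or quantiles left 7 of 8 negative, and median ratios gave the call of Dnaja3 named above. Hspd1 and Hspe1 encode the chaperonin HSP60 and its lid HSP10 and lie head to head on chromosome 1, where their exons share 112 nt on opposite strands. Hspe1 had 172.06, 124.71 and 172.22 FPKM in I/R+B12 and 214.35, 206.73 and 207.43 FPKM in I/R, against 202.44, 298.52 and 228.38 FPKM in Sham+B12 and 207.65, 210.03 and 146.40 FPKM in Sham. The I/R+B12 hearts were below the Sham+B12 hearts, with a difference of -0.63 that just missed the threshold (SE 0.19, adjusted p 0.0540) and was called with median-ratio and quantile normalization and when Sham 3 and I/R 3 were left out (adjusted p 0.0434). Hspe1 had the smallest interaction p of the family, at -0.80 (SE 0.27, adjusted p 0.387).

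Hspd1 had 114.43, 65.47 and 84.00 FPKM in I/R+B12 and 112.01, 117.37 and 135.40 FPKM in I/R, against 101.86, 120.52 and 124.78 FPKM in Sham+B12 and 113.78, 98.18 and 116.23 FPKM in Sham. The first I/R+B12 heart lay with the other groups and the remaining I/R+B12 hearts below them. Dnaja3, the mitochondrial J-domain protein TID1, had 57.77, 24.06 and 47.09 FPKM in I/R+B12 and 56.19, 51.54 and 62.02 FPKM in I/R, against 67.76, 65.44 and 74.05 FPKM in Sham+B12 and 74.66, 58.64 and 59.89 FPKM in Sham. Its difference under B12 was -0.76 (adjusted p 0.0723). Hspa9, the mitochondrial HSP70, ranged over 164.4 to 228.3 FPKM with a difference of -0.11 (adjusted p 0.459). Summed cardiomyocyte markers were at 56350 to 78230 FPKM in I/R+B12 and 51660 to 70450 FPKM in I/R, against 74200 to 80460 FPKM in Sham+B12 and 70980 to 79350 FPKM in Sham. Their part in these values was not tested.

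**Figure D5:**
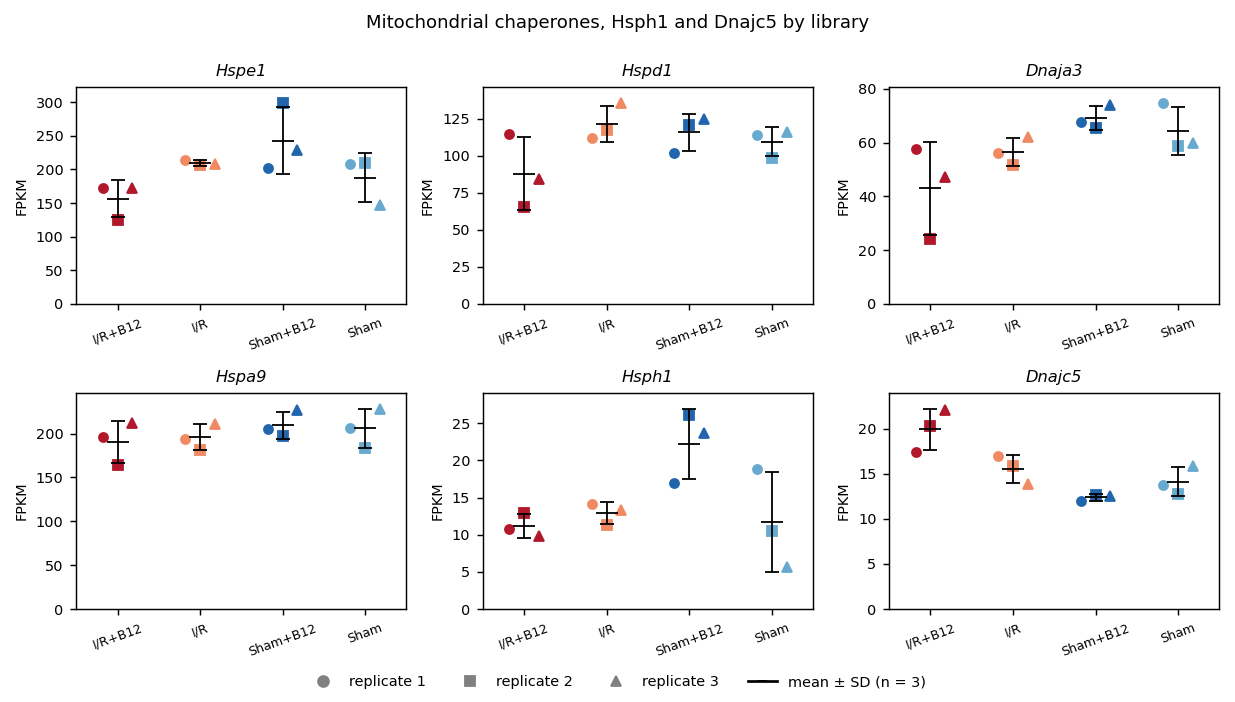
FPKM of 4 mitochondrial chaperone genes, Hsph1 and Dnajc5 in each library, by group, with the mean and SD of 3 libraries. The I/R+B12 points of Hspe1 lie below those of Sham+B12, those of Dnajc5 lie above every other point, and Sham+B12 is highest on average for Hsph1.

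Directly between the waters, I/R+B12 against I/R gave 0 called family genes and 0% of all tested genes. At an unadjusted p under 0.05 limma gave 1 higher (1.5% against 3.9% of all tested genes) and 16 lower (24.6% against 24.6%). The family median was -0.21, as was that of all genes, and median-ratio scaling took them to 0.01 and 0.00. The smallest p-values were those of Hsp90b1, Dnajc10 (-0.62, adjusted p 0.0912), Dnajc28 (-1.18, adjusted p 0.104), Hspa12b (-0.89, adjusted p 0.113) and Dnajc18 (-0.53, adjusted p 0.113). Dnajc10 encodes ERdj5, an ER reductase, and Hspa12b is an HSP70 relative of endothelial cells. Hspa12b had 25.98, 9.29 and 8.54 FPKM in I/R+B12 and 28.00, 23.48 and 22.57 FPKM in I/R. The first I/R+B12 heart lay among the I/R hearts and the remaining ones well below. Dnajc28 had 9.33, 1.38 and 3.45 FPKM in I/R+B12 and 7.66, 9.94 and 12.55 FPKM in I/R, with the same heart of the I/R+B12 group apart. When the first I/R+B12 library was left out, 20 family genes were called, 2 higher and 18 lower, which is 30.8% beside 33.9% of all tested genes.

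In the sham-operated hearts B12 gave 0 called family genes and 0% of all tested genes, and at an unadjusted p under 0.05 limma gave 1 family gene higher and 0 lower (1.5% higher against 0.508% of all tested genes, with 1.18% lower). That gene was Hsph1, the cytosolic HSP110 and an exchange factor of HSP70. It had 17.02, 26.12 and 23.68 FPKM in Sham+B12 against 18.91, 10.52 and 5.61 FPKM in Sham. The groups overlapped, and the lowest value came from Sham 3. The difference was 1.00 (SE 0.32, adjusted p 0.999), and 0.60 without Sham 3. In the operated hearts Hsph1 had 10.82, 12.87 and 9.78 FPKM in I/R+B12 and 14.19, 11.34 and 13.37 FPKM in I/R, all below the lowest Sham+B12 heart, with a difference of -0.92 for I/R+B12 against Sham+B12 (adjusted p 0.0791). That Hsph1 difference was called lower when Sham 3 and I/R 3 were left out (adjusted p 0.0353). The interaction gave 0 called genes and 0% of all tested genes, with 1 family gene higher and 6 lower at an unadjusted p under 0.05 (1.5% and 9.2%, against 3.41% and 8.86%).

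By class, and beside 8.36% of all tested genes, 3 of 10 cytosolic DnaJ genes of classes A and B were called higher in the averaged comparison (30%, median 0.15). Of 11 cytosolic HSP70, HSP110 and HSP90 genes 1 was called (9.09%, median 0.11), of 17 other DnaJ genes of class C 2 (11.8%, median 0.02) and of 5 remaining symbols 0 (median -0.16). Dnajb6, which guards muscle against aggregates, was nearest to the threshold among the genes not yet described. It had 40.77, 54.41 and 49.18 FPKM in I/R+B12 and 41.18, 42.10 and 33.80 FPKM in I/R, against 36.54, 36.17 and 31.58 FPKM in Sham+B12 and 36.68, 34.53 and 38.80 FPKM in Sham. The I/R+B12 hearts lay above both sham groups, while I/R 3 lay among the sham hearts, and the averaged difference was 0.27 (adjusted p 0.0923).

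Dnaja4 and Dnajb5, class A and B cochaperones found in muscle, overlapped between the groups. Dnaja4 averaged 35.3 ± 7.61 FPKM in I/R+B12 and 29.1 ± 5.56 FPKM in I/R, against 36.4 ± 4.13 FPKM in Sham+B12 and 34.7 ± 6.90 FPKM in Sham, with a difference of -0.15 (adjusted p 0.497). Dnajb5 averaged 28.7 ± 9.04 FPKM in I/R+B12 and 22.1 ± 4.37 FPKM in I/R, against 23.8 ± 5.02 FPKM in Sham+B12 and 23.6 ± 5.80 FPKM in Sham. Its difference of 0.08 (adjusted p 0.790) turned to -0.02 with quantile normalization. Exons of Dnaja4 share 1581 nt with Wdr61 on the other strand, so its level is uncertain. Dnajb12 and Dnajb14 had averaged differences of -0.03 (adjusted p 0.884) and 0.22 (adjusted p 0.153).

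Genes that work with these chaperones were read beside the same background of 8.36% in the averaged comparison. In I/R+B12 against Sham+B12 the background was 6.78% higher and 3.62% lower. Of 27 tested genes of the HSF1 axis and cytosolic cochaperones, 2 rose in the averaged comparison (7.41%) and 0 fell: Bag5, an HSP70 exchange factor (0.38, adjusted p 0.0272), and Ptges3, the HSP90 cochaperone p23 (0.50, adjusted p 0.0332). Hsf1 itself was at 12.18 to 16.66 FPKM in all hearts (-0.02, adjusted p 0.884). In the B12 comparison 2 of the 27 rose (7.41% beside 6.78%), Bag5 (0.42, adjusted p 0.0437) and Bag2 (0.94, adjusted p 0.0310). Bag2 had 31.63, 67.99 and 60.39 FPKM in I/R+B12 against 24.98, 26.06 and 26.79 FPKM in Sham+B12. Of 22 tested genes of ER folding and the unfolded protein response, 4 rose (18.2%) and 0 fell: the transcription factor genes Atf4 (1.11, adjusted p 0.0180) and Xbp1 (0.92, adjusted p 0.0272), the disulfide isomerase gene Pdia3 (0.55, adjusted p 0.0416) and Manf, a secreted ER stress factor (1.09, adjusted p 0.0427). The median of these 22 genes was 0.38, beside 0.05 over all tested genes. In the B12 comparison 2 of the 22 rose (9.09% beside 6.78%), Atf4 (1.72, adjusted p 0.0155) and Xbp1 (1.16, adjusted p 0.0344).

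Atf4 had 70.18, 166.22 and 97.33 FPKM in I/R+B12 and 65.77, 58.54 and 46.80 FPKM in I/R, against 32.77, 30.83 and 29.25 FPKM in Sham+B12 and 32.78, 36.94 and 50.83 FPKM in Sham. Sham 3 lay above I/R 3 for this gene, and the other hearts followed their labels. Of 14 tested TRiC and prefoldin genes, which fold actin and tubulin, 3 rose (21.4%) and 0 fell: Cct2 (0.48, adjusted p 0.0340), Vbp1 (0.46, adjusted p 0.0351) and Cct6a (0.42, adjusted p 0.0473). Under B12 Cct2 alone rose (0.62, adjusted p 0.0415), which is 7.14% beside 6.78% of all tested genes. Of 14 tested genes of mitochondrial folding and proteolysis, 0 were called in the averaged comparison. Hscb, a J-domain protein of iron-sulfur cluster assembly, alone fell under B12, by 0.58 (adjusted p 0.0357), which is 7.14% beside 3.62% of all tested genes.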

How the data were processed

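RNA of 12 mouse hearts was sequenced as poly(A)-selected, paired-end libraries, per the labels' protocols. Reads were aligned and quantified with HISAT2 and StringTie on mm10, per the submitters' processing notes; versions and the annotation release are not given in the sources used here. The authors deposited 1 table of FPKM for 55487 genes. It gives no counts, so depth was estimated from the spacing of low values: 82.9% to 88.8% of them lay within 0.15 of a whole number of fragments. FPKM are shares of a library, so a few very high genes lower all others.

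Values were analysed as log2(FPKM + 1), a scale that understates changes of low genes. Genes with an FPKM of at least 1 in 3 libraries were tested (13001). The model had 4 group means over all 12 libraries and a trended variance (limma 3.58.1, R 4.3.3). Tests were two-sided, with 6 contrasts that share libraries. The script was tested on simulated data. Mice were assigned to groups singly, so libraries were taken as separate animals. Replicate numbers did not pair the libraries (mean r of 0.014 over 18 same-number pairs of deviations from group means), so no block was used.

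Genes named were all called members of a contrast, or the 5 with the smallest p where fewer than 3 were called, a fixed set of well-known chaperones, and the 3 highest and 3 lowest by level. Dnaja3, Dnajb6, Dnajb12, Dnajc11 and Smu1 were named after their values were seen. The members, classes and pathway lists were chosen with earlier results of these data known. Coordinates come from GENCODE M21 (all 72 members found) and promoter windows from RefSeq (59 of 72 matched). Alternatives were pseudocounts of 0.1 and 0.5, a filter at 5 FPKM or none, median-ratio and quantile scaling, no trend, library weights, a replicate block, the compared groups alone, and libraries left out. Figures were drawn with matplotlib 3.10.9.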

Additional observations from a re-analysis of the deposited data

How the results depend on the processing

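Of 23 settings, 22 applied to the comparison averaged over both waters. Its count of 10 called family genes was 3 with no filter (4.23% beside 1.02% of all tested genes). It was 27 with library weights, 19 higher and 8 lower (41.5% beside 36.4%). When single libraries were left out it was 0 to 16 (0% to 24.6%, beside 0% to 20.8%). The count of 5 in I/R+B12 against Sham+B12 was 3 with no filter (4.23% beside 0.971% of all tested genes) and 8 with a filter at 5 FPKM (13.6% beside 13.7%). It was 10 with median-ratio scaling (15.4% beside 14.8%), 9 with quantile normalization (13.8% beside 13.8%) and 15 with library weights (23.1% beside 23.7%). It was 9 when Sham 3 and I/R 3 were left out (13.8% beside 12.8%) and 1 with the compared groups only (1.54% beside 1.85%). Without single libraries it was 0 to 20 (0% to 30.8%, beside 0% to 29.5%). With library weights the counts of 0 became 11 in the interaction, 24 in I/R against Sham and 19 between the operated groups (16.9%, 36.9% and 29.2%, beside 14.1%, 33.9% and 33.3% of all tested genes). Without Sham 3 and I/R 3 the count in I/R against Sham was 2 (3.08%, beside 0.431%). With single libraries left out the counts of 0 were 0 to 20 between the operated groups (at most 30.8%, beside 33.9%). In the interaction they were 0 to 10 (at most 15.4%, beside 14.1%), and 0 to 0 in Sham+B12 against Sham and in I/R against Sham. With no filter the family had 71 tested genes and more genes shared the adjustment. The cause of the other moves was not tested.

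The family median in I/R against Sham (0.17) was 0.0302 with median-ratio scaling, 0.0389 with quantile normalization and 0.28 without Sham 3 and I/R 3, and 0.15 to 0.21 without single libraries. That in I/R+B12 against I/R (-0.21) was 0.0123 and -0.0642 with these scalings and -0.30 to -0.19 without single libraries. That of the interaction (-0.18) was -0.0372 with median-ratio scaling and -0.29 to -0.13 without single libraries. The other medians ranged over -0.02 to 0.08 (averaged), -0.10 to -0.02 (I/R+B12 against Sham+B12) and -0.05 to 0.01 (Sham+B12 against Sham) without single libraries.

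Averaged differences that were not called changed sign in 3 named genes. Hspb7 was -0.0496 with median-ratio scaling, -0.0266 after quantile scaling and -0.1445 to 0.1758 without single libraries. Dnajb5 was -0.0202 after quantile scaling, -0.018 when libraries were weighted and -0.0364 to 0.1693 without single libraries. Hsp90ab1 was 0.032 without Sham 3 and I/R 3 and -0.0671 to 0.0204 without single libraries. All 10 called genes kept their sign in every setting in which they were tested. Their averaged calls were lost in 4 settings (Dnaja1) to 12 settings (Hsp90aa1). A replicate block left 9 genes called in the averaged comparison (13.8%, beside 10.2% of all tested genes) and 5 in the B12 one (7.69%, beside 8.13%). The only call it changed among the 110 results compared was that of Hsp90aa1. Depth limits genes near an FPKM of 1, such as Hspbap1.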
